A study of Mus musculus with 6 samples.

Results

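The genes described here are 9 interferon-stimulated and MHC class I genes, *Ifit1*, *Ifit3*, *Isg15*, *Irf7*, *Bst2*, *Ifitm3*, *B2m*, *H2-K1* and *H2-D1*, chosen by name from the 55385 genes in the RNA count table. RNA was sequenced from G4 mESCs, a hybrid mouse embryonic stem cell line, that were wild-type or carried a CRISPR deletion of the *Wnt6* loop anchor region on a single allele (heterozygous) or on both alleles (homozygous). All 3 genotypes were grown with LIF on CD1 feeder cells, so each library can hold RNA of both cell types. The mutant lines came from individual clones, and the labels give 2 libraries per genotype without naming the clone or culture of each, so p-values measure only the spread between these libraries. Library totals ran from 23813912 to 28964706 counts, replicates differed by more than sampling noise, and *Wnt6* itself was at 0.374 and 0.509 CPM, counts scaled to the normalized library total, in wild-type, 0.241 and 0.150 in heterozygous and 0 in both homozygous libraries.

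Interferons are secreted proteins that cells release on sensing foreign nucleic acid. Type I interferons bind the Ifnar1 and Ifnar2 receptor chains, which through the kinases Jak1 and Tyk2 activate a transcription factor complex that includes Stat2 and Irf9. That complex binds interferon-stimulated response elements in the promoters of antiviral genes, and interferon gamma acts through Irf1, among others, on an overlapping set. MHC class I molecules, made of a polymorphic heavy chain and the invariant light chain B2m, display peptides from inside the cell to T cells and are also raised by interferon. Pluripotent stem cells are known for a weak interferon response and for low MHC class I, whereas fibroblasts, the usual feeder cells, carry both.

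The 9 genes split by level into a higher and a low group, and 3 of them differed between genotypes. *Ifitm3*, *Bst2*, *B2m*, *H2-K1* and *H2-D1* lay between 19.8 and 159 CPM in every library, and the inducible antiviral genes *Ifit1*, *Ifit3*, *Isg15* and *Irf7* stayed below 1 CPM in every library. In the homozygous deletion the class I genes *B2m*, *H2-K1* and *H2-D1* fell relative to wild-type, by 32.8%, 14.8% and 37.7%, and the call of *H2-K1* was lost under some alternatives. No gene of the 9 passed the test in the heterozygous deletion against wild-type.

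Parts of the promoters are shown because these genes are known as interferon targets through short elements near their start sites. RefSeq promoters of GRCm38.p6, from 250 bases before to 50 bases after the start site, were found for all 9 genes. Each line gives 30 bases on the gene's own strand, 5′ to 3′, with capitals marking a pair of GAAA half-sites, or a GAA and a GAAAC half-site, 2 bases apart, the spacing of an interferon-stimulated response element. On the opposite strand these half-sites read TTTC, TTC and GTTTC.

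Ifit1, chr19:34640775-34640804, plus strand: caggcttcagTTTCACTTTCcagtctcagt
Ifit3, chr19:34583363-34583392, plus strand: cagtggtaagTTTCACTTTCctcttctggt
Isg15, chr4:156200877-156200906, minus strand: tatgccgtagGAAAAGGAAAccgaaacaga
Bst2, chr8:71537583-71537612, minus strand: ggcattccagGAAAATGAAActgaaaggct
Ifitm3, chr7:141010723-141010752, minus strand: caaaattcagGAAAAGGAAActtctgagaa
B2m, chr2:122147538-122147567, plus strand: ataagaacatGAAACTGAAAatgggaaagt
H2-K1, chr17:34000419-34000448, minus strand: catctccacaGTTTCACTTCtgcacctaac
H2-D1, chr17:35262933-35262962, plus strand: catctcctcaGTTTCACTTCtgcacctaac

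Paired GAAA half-sites 2 bases apart, searched on both strands, occurred in the windows of *Ifit1*, *Ifit3*, *Isg15*, *Bst2*, *Ifitm3* and *B2m*, and in 3.49% of 27025 mouse promoters of the same length. The GAA and GAAAC pair occurred in *Isg15*, *H2-K1* and *H2-D1*, and in 1.77% of promoters, and the 2 motifs can overlap. In *Ifitm3* the paired half-sites began 2 and 19 bases after the start site, and in *Isg15* there were 3 overlapping pairs between 78 and 66 bases before it, as counted from their first bases at -78, -72 and -66. *Irf7* had neither motif in this window. The class I genes have a second promoter module, in which the factors of the Rfx, Creb and NF-Y families bind with the coactivator Nlrc5. The next lines show only a part of it, from a TGACG to an ATTGG, with capitals on these letters.

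B2m, chr2:122147609-122147638, plus strand: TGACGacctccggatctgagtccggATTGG
H2-K1, chr17:34000359-34000388, minus strand: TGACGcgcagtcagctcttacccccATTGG
H2-D1, chr17:35262993-35263022, plus strand: TGACGcgctggcaggtctcactatcATTGG

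A TGACG followed after 15 to 30 bases by ATTGG, searched only on the gene's own strand, occurred in 0.34% of promoters and in none of the other 6 genes. In *B2m*, *H2-K1* and *H2-D1* the same 20 bases of distance separated these letters. Among the 69 tested genes of the promoter table that hold the pair, 9 (13.0%) were lower and 8 (11.6%) higher in the homozygous deletion than in wild-type, close to the shares over all tested genes, 10.5% and 10.9%. The search letters were chosen after the promoters had been looked at, and a match describes the sequence only.

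*Ifit1* (chromosome 19 of GRCm38, 34640871 to 34650009), whose protein binds viral RNA that lacks host cap methylation, had 3 and 13 counts (wild-type), 5 and 7 (heterozygous) and 1 and 5 (homozygous). *Ifit3* (chromosome 19, 34583531 to 34588731), an adaptor of the same protein family, had 2 and 0 counts (wild-type), 2 and 2 (heterozygous) and 7 and 2 (homozygous). These 2 genes sat near the smallest level the depth can show, since 3 counts correspond to between 0.102 and 0.131 CPM, and none of their differences passed the test. Of the 50-base stretches of *Ifit3* transcripts 51.2% also occur in the paralogue *Ifit3b*, so its few counts are uncertain by origin too. With at most 2 counts in each wild-type and heterozygous library, no fold change was given for *Ifit3* between those genotypes.

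*Isg15* (chromosome 4, 156199424 to 156200818), a ubiquitin-like protein that is joined to other proteins during the interferon response, had 23 and 18 counts (wild-type), 18 and 10 (heterozygous) and 13 and 10 (homozygous). Its level was 0.744 ± 0.0551 CPM in wild-type and 0.476 ± 0.130 CPM in homozygous cells (SD, n = 2 libraries each). The difference of the homozygous deletion from wild-type was -0.66 on the log2 scale with a 95% interval from -1.51 to 0.20, and it did not pass the test (edgeR adjusted p = 0.285). *Irf7* (chromosome 7, 141262706 to 141266481), the transcription factor that amplifies type I interferon production, had 7 and 7 counts (wild-type), 5 and 8 (heterozygous) and 6 and 2 (homozygous). Its exons overlap those of *Phrf1* on the opposite strand. *Ifit1*, *Ifit3* and *Irf7* did not reach the filter of 10 counts in at least 2 libraries, and in a fit of all 32934 genes with any count none of the 3 passed the test in any comparison, with edgeR adjusted p from 0.293 to 1.0. At this depth the intervals were wide, from -2.61 to 0.14 on the log2 scale for *Ifit1* in the homozygous deletion against wild-type.

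**Figure D1:**
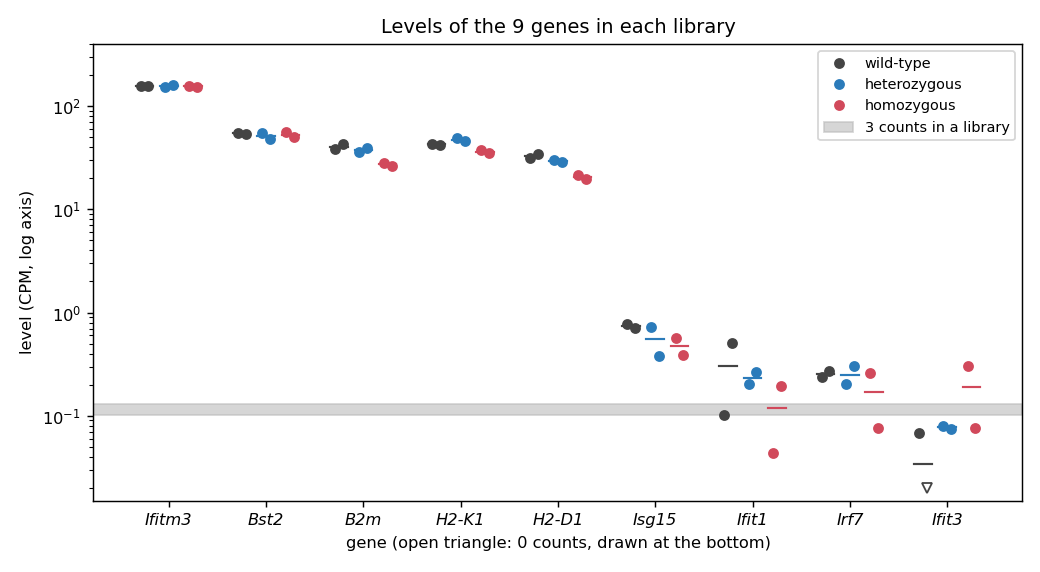
Level of each of the 9 genes in each of the 6 libraries, in CPM on a log axis, with dots for libraries, short lines for the mean of the 2 libraries of a genotype and a grey band at the level of 3 counts. *Ifitm3*, *Bst2*, *B2m*, *H2-K1* and *H2-D1* lie far above the band, and the homozygous dots of *B2m*, *H2-K1* and *H2-D1* lie below all wild-type and heterozygous dots of the same gene.

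The 2 restriction factors of the set, both membrane proteins, were abundant and did not pass the test in any comparison. *Ifitm3* (chromosome 7, 141009586 to 141010770), which blocks virus entry from endosomes, was at 156 and 158 CPM (wild-type), 155 and 159 (heterozygous) and 157 and 154 (homozygous). The groups overlapped, and the difference of the homozygous deletion from wild-type was -0.02 on the log2 scale with a 95% interval from -0.11 to 0.07 (edgeR adjusted p = 0.829). *Bst2* (chromosome 8, 71534255 to 71537456), also called tetherin, which holds budding virus at the cell surface, was at 55.0 and 53.7 CPM (wild-type), 54.7 and 48.4 (heterozygous) and 55.5 and 49.7 (homozygous). Its groups overlapped too, and homozygous cells differed from wild-type by -0.05 with a 95% interval from -0.19 to 0.09 (edgeR adjusted p = 0.652). *Bst2* lies on chromosome 8, where the median of 890 tested genes was 0.39 higher on the log2 scale in the homozygous deletion than in wild-type, while the medians on the chromosomes of the other 8 genes lay between -0.05 and -0.01, and the part of the chromosome in the *Bst2* value was not tested. For *Ifitm3*, 10.02% of 50-base stretches occur in other genes.

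*B2m* (chromosome 2, 122147686 to 122153083) encodes the light chain that every classical class I molecule needs to reach the cell surface. It was at 38.1 and 43.1 CPM (wild-type), 36.3 and 39.0 (heterozygous) and 28.3 and 26.3 (homozygous). The homozygous libraries lay below the other 4, which overlapped each other. In the homozygous deletion *B2m* fell by 0.57 ± 0.072 (SE) on the log2 scale relative to wild-type (edgeR adjusted p = 5.77e-06) and by 0.47 ± 0.073 relative to the heterozygous deletion (adjusted p = 7.1e-05).

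*H2-D1* (chromosome 17, 35262730 to 35267499) and *H2-K1* (chromosome 17, 33996017 to 34000347) encode the classical heavy chains of the H-2D and H-2K molecules, which hold the peptide. *H2-D1* was at 31.8 and 34.2 CPM (wild-type), 30.3 and 28.4 (heterozygous) and 21.4 and 19.8 (homozygous). The 3 genotypes did not overlap, with the homozygous libraries lowest. *H2-D1* fell by 0.68 ± 0.072 in the homozygous deletion relative to wild-type (edgeR adjusted p = 6.76e-07) and by 0.52 ± 0.074 relative to the heterozygous deletion (adjusted p = 2.7e-05). *H2-K1* followed another order, at 42.7 and 42.5 CPM (wild-type), 48.8 and 45.5 (heterozygous) and 37.8 and 34.9 (homozygous). Here too the genotypes did not overlap, but the heterozygous libraries were the highest. The fall of *H2-K1* in the homozygous deletion was 0.23 ± 0.062 relative to wild-type (edgeR adjusted p = 0.011), and this call was lost with DESeq2 (adjusted p = 0.0549), without wild-type replicate 1 (0.0790), without wild-type replicate 2 (0.0728) and without homozygous replicate 2 (0.0956). Against the heterozygous deletion *H2-K1* fell by 0.38 ± 0.062 (adjusted p = 0.000135). Stretches of 50 bases shared with other genes make up 9.63% of *H2-K1* (24 other genes) and 12.8% of *H2-D1* (103 other genes). Those sharing the most with each are other class I heavy chains, and counts may be split between genes that share stretches.

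Read against all 16951 tested genes, 3 of the 6 tested genes of the set were lower and none was higher in the homozygous deletion than in wild-type at an adjusted p under 0.05, where 10.5% of all genes were lower and 10.9% higher. The same 3 were lower when the homozygous deletion was compared with the heterozygous one, where 12.9% of all genes were lower and 12.9% higher. In the heterozygous deletion against wild-type 0 of the 6 passed the test, where 2.91% of all genes were lower and 2.23% higher. The edgeR estimates there were -0.11 for *B2m* (95% interval -0.25 to 0.04), -0.17 for *H2-D1* (-0.31 to -0.02) and 0.15 for *H2-K1* (0.02 to 0.27), with adjusted p of 0.487, 0.212 and 0.215. At an unadjusted p under 0.05, which 16.3% of all tested genes passed, 2 of the 6 passed there, *H2-D1* and *H2-K1*, and DESeq2 with adjustment called 0. None of the 9 passed the additional fold threshold, an absolute log2 fold change above 1, which 0.165% of tested genes passed in heterozygous and 2.14% in homozygous cells against wild-type and 1.39% between the deletions. The median log2 fold change of the 6 tested genes was -0.09, -0.40 and -0.29 in the heterozygous against wild-type, homozygous against wild-type and homozygous against heterozygous comparisons, while the medians of all tested genes were 3.68e-06, -0.0061 and -0.02. Over all 9 genes, 3 of them near the floor, the medians were -0.08, -0.57 and -0.38, and with a library left out they ran up to 0.0055, -0.17 and -0.0010. These comparisons share libraries.

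**Figure D2:**
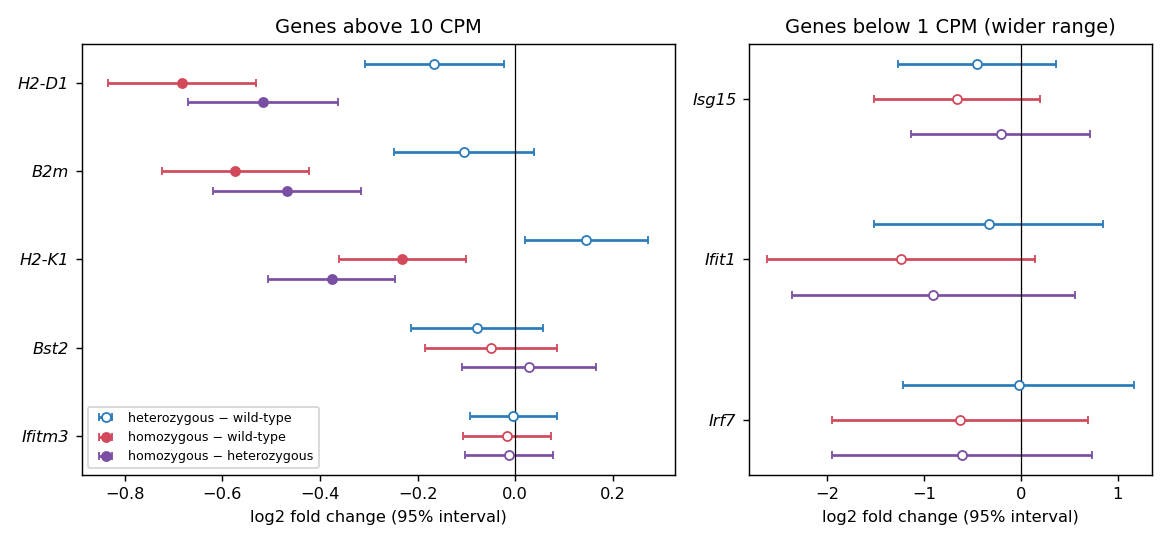
Fitted log2 fold changes (x axis) with 95% intervals in the 3 comparisons, for the genes above 10 CPM (left) and for 3 of the genes below 1 CPM (right, on a wider range), with filled dots where the adjusted p was under 0.05. *H2-D1*, *B2m* and *H2-K1* have filled dots in both comparisons of the homozygous deletion, and the intervals of *Bst2* and *Ifitm3* all span 0.

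Because feeder cells were in the culture, fibroblast markers were read beside these genes. Of 38 fibroblast markers, collagens, matrix proteins and mesenchymal factors, none was at 0 in all libraries and 36 were tested. In the homozygous deletion 33 of the 36 fell relative to wild-type and 0 rose, beside 10.5% and 10.9% of all tested genes. The median was -1.02 on the log2 scale. In the heterozygous deletion 29 fell and 0 rose, beside 2.91% and 2.23% of all tested genes, with a median of -0.47. The summed level of the list was 7187 and 7169 CPM (wild-type), 5515 and 5497 (heterozygous) and 3989 and 3955 (homozygous). The most lowered tested marker was the surface protein gene *Thy1*, at 22.7 and 25.1 CPM (wild-type) against 9.08 and 8.99 CPM (homozygous). Highest was the gelatinase gene *Mmp2*, at 26.5 and 30.8 against 29.0 and 29.7 CPM. *Mmp2* lies on chromosome 8, whose median was 0.39 in the homozygous deletion against wild-type. *Cdh11*, a marker on the same chromosome, fell in that comparison (-1.30, edgeR adjusted p = 4.97e-10). The part of the chromosome in these values was not tested. The fibroblast list and the class I genes were both lower in the homozygous deletion. Most of the list also fell in the heterozygous deletion. There the estimates of *H2-D1*, *B2m* and *H2-K1* were -0.17, -0.11 and 0.15, and none of them passed the test. The part of feeder RNA in the class I values was not tested. In these bulk samples fewer cells of a type and less RNA per cell cannot be told apart.

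The cultures had the markers of stem cells. The 20 pluripotency genes summed to 5264 and 5383 CPM (wild-type), 4977 and 4923 (heterozygous) and 5536 and 5291 (homozygous). Of the 20, 10 fell in the heterozygous deletion, while 1 rose and 1 fell in the homozygous one. The gene that rose, *Zfp42*, lies on chromosome 8, as does *Klf2*, which did not pass the test there (0.07, edgeR adjusted p = 0.563). Among all tested genes 2.91% fell and 2.23% rose in the heterozygous deletion against wild-type, and 10.5% and 10.9% in the homozygous one. Relative to the heterozygous deletion, 13 of the 20 rose and 0 fell in the homozygous one, with a median of 0.17. In that comparison 12.9% of all tested genes rose and 12.9% fell. Of 15 macrophage and blood markers 6 were tested, *Adgre1* was at 0 in every library and *Tyrobp* and *C1qa* had at most 2 counts. Of the 6, the lysosomal genes *Cd68* and *Laptm5* fell in the homozygous deletion against wild-type, by 0.50 and 0.49 on the log2 scale, and *Cd74* rose in the heterozygous one. The 6 tested endothelial markers had medians of 0.10 and 0.0075 in the heterozygous and homozygous deletion. Of 8 tested primitive endoderm markers *Cubn* rose in the heterozygous deletion, by 1.28, and *Dab2* and *Lamb1* fell in the homozygous one, and of 8 tested trophectoderm markers 2 rose in the heterozygous deletion and 3 rose and 2 fell in the homozygous one. The part of these cell types in the class I values was not tested.

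Levels were compared between the 9 genes per kilobase of exon. In wild-type cells the order was *Ifitm3* at 232 ± 2.22 CPM per kilobase, *Bst2* at 60.2 ± 1.02, *B2m* at 47.2 ± 4.08, *H2-K1* at 14.5 ± 0.0557, *H2-D1* at 12.8 ± 0.667, *Isg15* at 0.984 ± 0.0729, *Ifit1* at 0.115 ± 0.108, *Irf7* at 0.0679 ± 0.00672 and *Ifit3* at 0.0195 ± 0.0276 (SD, n = 2). The first 6 levels were separate in their wild-type libraries, while those of *Ifit1* overlapped with those of *Irf7* and of *Ifit3*. Among 28552 genes with any count in wild-type, *Ifitm3* stood at the 99.5 percentile, *B2m* at 96.1, *H2-D1* at 85.6 and *Isg15* at 57.7. The light chain thus lay above its heavy chains on this scale, and in homozygous cells *B2m* was at 31.7 ± 1.62, *H2-K1* at 12.4 ± 0.702 and *H2-D1* at 7.97 ± 0.439 CPM per kilobase.

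Upstream of the stimulated genes, the interferon ligands were at or near 0 counts. Of 18 ligand genes, among them *Ifnb1* and the *Ifna* family, 15 had 0 counts in all libraries, and *Ifna4*, *Ifnab* and *Ifng* had at most 1 count in a library. A count of 0 allows a level of up to 0.131 CPM in the shallowest library. All 6 receptor genes were tested. In the homozygous deletion 3 fell and 0 rose relative to wild-type, beside 10.5% and 10.9% of all tested genes, with a median of -0.23. They were *Ifnar1*, a chain of the type I receptor, at 49.1 and 51.4 CPM (wild-type) against 43.8 and 41.7 CPM (homozygous) (-0.23, edgeR adjusted p = 0.00538), the interferon gamma receptor chain *Ifngr2* (-0.48) and *Il10rb* (-0.59), a chain shared by the interferon lambda and interleukin 10 receptors. *Ifnar2*, the partner of *Ifnar1*, did not pass the test (-0.23, adjusted p = 0.181). In the heterozygous deletion the estimates of the 6 lay between -0.08 and 0.33, with *Ifnlr1*, a chain of the interferon lambda receptor, the highest (adjusted p = 0.446) and *Ifngr1* at 0.06 (adjusted p = 0.832).

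Of 10 signal transducers, 2 rose and 2 fell in the homozygous deletion against wild-type, beside 10.9% and 10.5% of all tested genes. The median was -0.05. *Irf1*, the factor that carries interferon gamma signals to the class I promoters, was at 31.8 and 31.5 CPM (wild-type), 35.4 and 34.6 (heterozygous) and 23.9 and 22.1 (homozygous). It fell by 0.46 ± 0.067 in the homozygous deletion against wild-type (edgeR adjusted p = 3.75e-05), and its heterozygous libraries lay above the wild-type ones without passing the test (0.15, adjusted p = 0.246). *Stat2* fell by 0.26 (adjusted p = 0.0285), while *Irf9* (-0.22, adjusted p = 0.0901), which binds DNA in the type I complex, did not pass the test. The kinase gene *Tyk2* and the phosphatase gene *Ptpn6*, which dampens cytokine signalling, rose by 0.20 and 0.26. In the heterozygous deletion the kinase gene *Jak2* (0.31, adjusted p = 0.062) and *Socs3*, a feedback inhibitor of cytokine receptors (-0.10, adjusted p = 0.425), did not pass the test.

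Of 13 nucleic acid sensors and relays, 1 rose and 3 fell in the homozygous deletion against wild-type, beside 10.9% and 10.5% of all tested genes. The median was -0.07. The members of the cytosolic DNA pathway went in different directions. *Cgas*, which makes the messenger cGAMP on binding DNA, was at 2.01 and 2.12 CPM (wild-type) against 3.71 and 3.23 CPM (homozygous) and rose by 0.75 (edgeR adjusted p = 0.00554), whereas *Tmem173*, the cGAMP receptor also called STING, was at 2.66 and 2.78 against 1.27 and 1.27 CPM and fell by 1.10 (adjusted p = 0.000827). *Zbp1*, a sensor of Z-form nucleic acid, fell by 2.72, from 26 and 27 counts in wild-type to 2 and 5 counts (adjusted p = 0.000305). The RNA sensor *Ddx58*, also called RIG-I, fell by 0.20, and the factor *Irf3*, which these sensors activate, did not pass the test (-0.15, adjusted p = 0.125). In the heterozygous deletion *Traf3*, an adaptor of these sensors, rose by 0.23, and the other 12 did not pass the test, among them the kinase gene *Ikbke* (0.41, adjusted p = 0.229) and the adaptor gene *Ticam1* (-0.27, adjusted p = 0.323).

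Of 55 other interferon-stimulated genes 41 were tested. In the homozygous deletion against wild-type 15 fell and 0 rose, beside 10.5% and 10.9% of all tested genes, with a median of -0.29. Of the 15, 6 were past the fold threshold, which 2.14% of all tested genes passed. The 6 were *Lgals3bp*, a secreted glycoprotein gene (-1.46), *Ifi27* (-1.16), the immunoproteasome subunit gene *Psmb8* (-1.15), the guanylate-binding protein gene *Gbp7* (-1.12), *Herc6* (-1.10), which encodes a ligase for Isg15, and the oligoadenylate synthetase gene *Oas1a* (-1.05). *Parp12*, a mono-ADP-ribosyltransferase gene, had the smallest adjusted p, with 21.8 and 20.8 CPM (wild-type) against 13.2 and 13.0 CPM (homozygous) (-0.70, edgeR adjusted p = 1.61e-06). *Trim25*, which modifies RIG-I with ubiquitin, fell by 0.26. *Ifit2*, of the same family as *Ifit1* and *Ifit3*, was higher than both in every library, at 5.34 and 4.94 CPM (wild-type), 4.30 and 4.77 (heterozygous) and 7.55 and 5.69 (homozygous), and did not pass the test against wild-type (0.35, adjusted p = 0.0871). *Ifit3b* had 0 and 0 counts (wild-type), 4 and 1 (heterozygous) and 0 and 3 (homozygous).

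The heterozygous deletion had another pattern among the same 41 genes, with 2 higher and 2 lower, beside 2.23% and 2.91% of all tested genes. *Gbp2* was at 19.7 and 19.8 CPM (wild-type), 30.2 and 28.4 (heterozygous) and 20.5 and 19.2 (homozygous), so that it rose by 0.57 ± 0.071 in the heterozygous deletion (edgeR adjusted p = 3.46e-05) and not in the homozygous one, where the estimate was 0.0032 (adjusted p = 0.984). *Gbp3*, of the same family of guanylate-binding proteins, rose by 0.68 with the heterozygous and fell by 0.74 with the homozygous deletion, and the 2 deletions differed by -1.42 (adjusted p = 3.87e-05). *Lgals3bp* (-1.11) and *Oas1a* (-0.89) fell in the heterozygous deletion, as they did in the homozygous one.

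The other genes of the Ifitm family did not all follow *Ifitm3*. *Ifitm1* was at 94.5 and 105 CPM (wild-type), 83.6 and 87.6 (heterozygous) and 75.4 and 67.4 (homozygous). It fell by 0.22 in the heterozygous deletion (edgeR adjusted p = 0.0317) and by 0.49 in the homozygous one (adjusted p = 5.05e-06), and its 3 genotypes did not overlap. *Ifitm2* did not pass the test in the heterozygous (-0.16, adjusted p = 0.140) or the homozygous deletion (-0.14, adjusted p = 0.0866). Of the 6 tested family members, *Ifitm3* included, 2 fell in the homozygous deletion against wild-type, beside 10.5% of all tested genes. The second was the low gene *Ifitm10* (-1.35, edgeR adjusted p = 0.0244). *Ifitm5*, known from bone, did not pass it (-0.73, adjusted p = 0.205).

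Of 22 other heavy chains and class I-like genes that were found, 19 were tested. Relative to wild-type, 2 fell and 0 rose in the homozygous deletion, beside 10.5% and 10.9% of all tested genes. The median was -0.23. *H2-Q4*, a non-classical chain gene, was at 16.2 and 15.8 CPM (wild-type), 17.1 and 18.2 (heterozygous) and 10.9 and 12.0 (homozygous) (-0.48, edgeR adjusted p = 0.000498). Its heterozygous libraries were the highest, the order also seen for *H2-K1*. *H2-M5* was at 19.8 and 19.0 CPM (wild-type), 13.2 and 14.1 (heterozygous) and 15.4 and 16.2 (homozygous), with the heterozygous libraries lowest. It fell in both deletions, by 0.51 and 0.30. *H2-T10* (-1.0, adjusted p = 0.0566) and *Mr1*, which presents vitamin B metabolites (-1.32, adjusted p = 0.105), did not pass the test, nor in the heterozygous deletion did *Fcgrt*, the neonatal Fc receptor gene (-0.45, adjusted p = 0.159), and *H2-Bl* (-0.41, adjusted p = 0.208).

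The genes that load class I molecules and supply their peptides included some that rose and some that fell. Of these genes 17 were tested, and *Tap1*, *Psmb8* and *Psmb9* also stand in the previous list of stimulated genes. Relative to wild-type, 6 fell and 4 rose in homozygous cells, beside 10.5% and 10.9% of all tested genes. The median was -0.01. Those that fell include the peptide transporter chain *Tap2* (-1.03, edgeR adjusted p = 0.000819), the immunoproteasome subunits *Psmb8* (-1.15) and *Psmb9* (-0.94), the proteasome activator *Psme2* (-0.32) and tapasin, *Tapbp*, which ties class I molecules to the transporter. *Tapbp* was at 31.1 and 30.5 CPM (wild-type), 36.5 and 35.7 (heterozygous) and 22.8 and 22.3 (homozygous). It rose by 0.23 in the heterozygous (adjusted p = 0.0341) and fell by 0.45 in the homozygous deletion (adjusted p = 3.47e-05). *Tap1*, the other transporter chain, lay just outside the threshold in the homozygous deletion against wild-type (-0.29, adjusted p = 0.0504) and fell by 0.47 against the heterozygous one (adjusted p = 0.00207).

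The third immunoproteasome subunit, *Psmb10*, went the other way, at 37.3 and 37.4 CPM (wild-type), 33.3 and 28.6 (heterozygous) and 46.5 and 42.3 (homozygous). It rose by 0.25 in the homozygous (edgeR adjusted p = 0.0147) and fell by 0.27 in the heterozygous deletion (adjusted p = 0.0317). *Psmb10*, *Nlrc5*, *Calr* and *Rfxank* were the 4 that rose in the homozygous deletion, and they are the 4 of this list on chromosome 8, where among 890 tested genes 61.5% rose and 2.02% fell in homozygous cells against wild-type, compared with 8.09% and 11.0% elsewhere. The median of chromosome 8 was 0.39 in the homozygous and -0.12 in the heterozygous deletion against wild-type, and its part in the rise of these genes was not tested. *Nlrc5*, the coactivator of the class I module shown in part above, was at 2.01 and 1.68 CPM (wild-type), 1.73 and 1.39 (heterozygous) and 3.19 and 2.65 (homozygous), a rise of 0.65 (edgeR adjusted p = 0.0292). *Calr*, the chaperone calreticulin, rose by 0.21 and *Rfxank*, a subunit of the Rfx complex, by 0.41, while the loading partner *Pdia3* fell by 0.20.

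**Figure D3:**
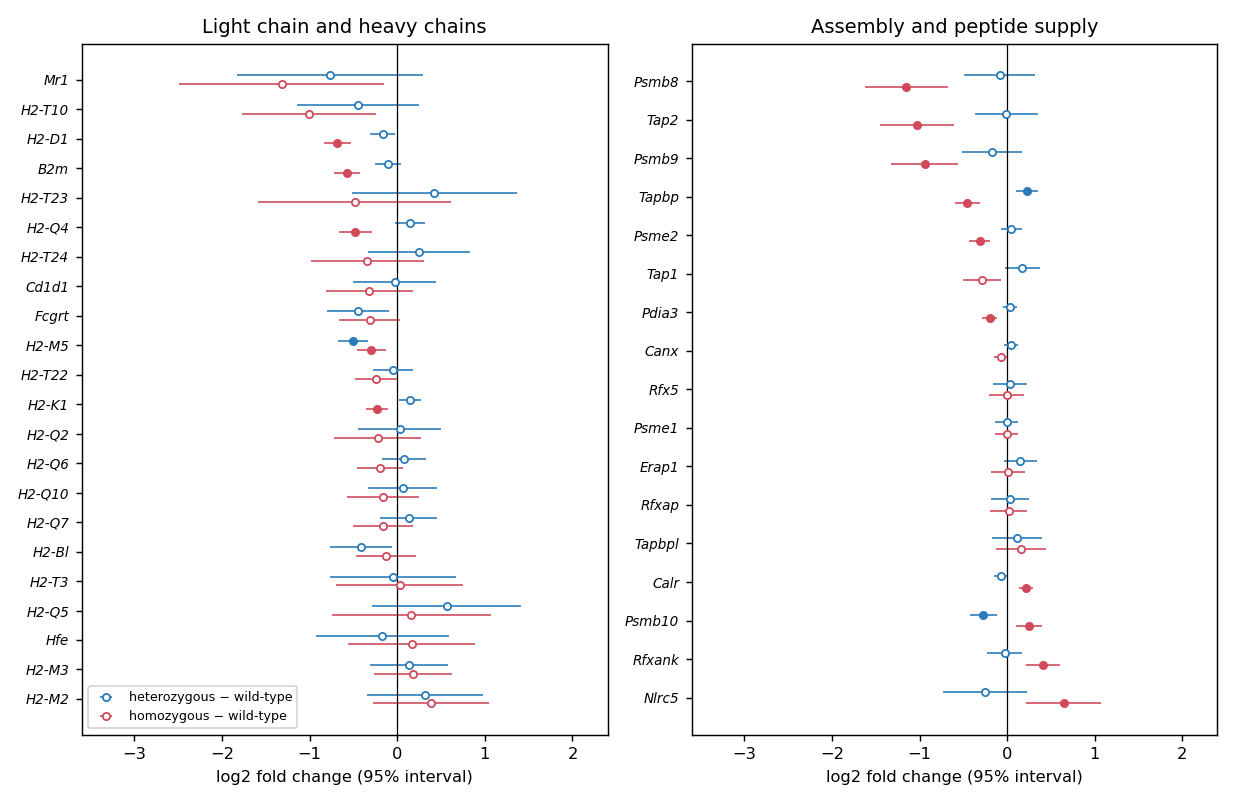
Log2 fold changes against wild-type (x axis) with 95% intervals for the light chain and heavy chains (left) and for assembly and peptide supply (right), heterozygous in blue and homozygous in red, with filled dots where the adjusted p was under 0.05. *B2m*, *H2-D1*, *H2-K1*, *H2-Q4* and *H2-M5* have filled homozygous dots below 0, and on the right such dots lie on both sides of 0, from *Psmb8* at -1.15 to *Nlrc5* at 0.65, with those above 0 all on chromosome 8.

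**Figure D4:**
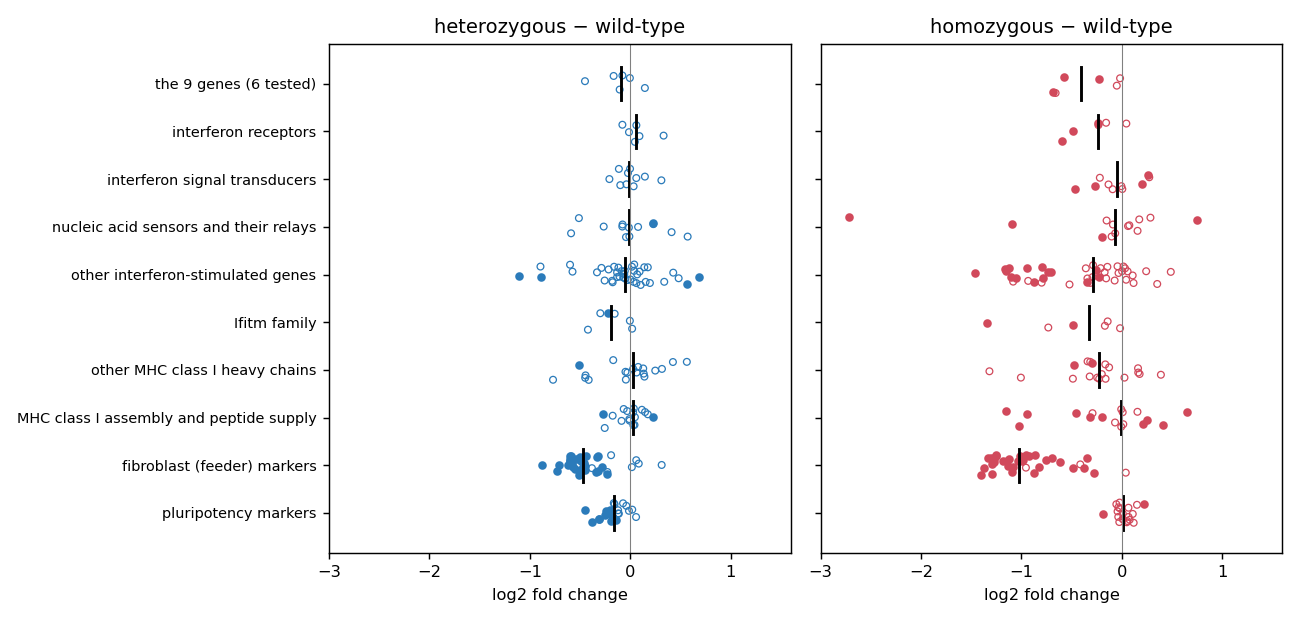
Log2 fold change (x axis) of each tested gene of the 9 genes and of 9 lists, in heterozygous (left) and homozygous (right) cells against wild-type, with filled dots where the adjusted p was under 0.05 and a black bar at the median. The fibroblast list lies lowest in both panels, with medians of -0.47 and -1.02, and the other interferon-stimulated genes have a homozygous median of -0.29.

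To place the 5 abundant genes among all others, the genes with the most similar pattern over the 6 libraries were found by the root mean square difference of centred log2 CPM, among 10768 tested genes with a mean of at least 5 CPM. For *B2m* they were *Antxr1* (0.045), *Gss* (0.0492) and *Lpar1* (0.0535), for *H2-D1* they were *Fam114a1* (0.0395), *Fam214b* (0.0443) and *H1f2* (0.0461), and for *H2-K1* they were *Socs5* (0.022), *Efna4* (0.0242) and *Plaur* (0.0284). *Antxr1*, the gene nearest to *B2m*, was at 15.6 and 16.2 CPM (wild-type), 14.5 and 14.7 (heterozygous) and 10.8 and 10.5 (homozygous). *Bst2* was closest to *Tsc22d4* (0.0125), *Castor1* (0.0184) and *Rnf5* (0.0197), and *Ifitm3* to *Cant1* (0.0085), *Ccdc43* (0.0104) and *Eif3f* (0.0112). None of these 15 genes is in the lists above.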

How the data were processed

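RNA was measured in 6 libraries of mESCs. The table the authors deposited holds unnormalized whole-number read counts for each gene, from stranded polyA libraries. The submitters' processing notes name Trimmomatic 0.39, STAR 2.6.1d, SAMtools 1.9, featureCounts 1.6.4, DESeq2 1.22.2 and the builds mm10 and GRCm38, and the strand and multiple-mapping settings are not given in the sources used here. The study's methods state triplicates, and the 2 libraries per genotype of the labels were used.

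The counts were fitted with edgeR 4.0.16 in R 4.3.3, as a quasi-likelihood model of the 3 genotypes over all 6 libraries with TMM normalization. A gene was tested where 2 or more libraries reached 10 counts, and p-values were adjusted by the Benjamini-Hochberg method over all of them. "Rose" and "fell" mean an adjusted p under 0.05, and the fold threshold adds an absolute log2 fold change above 1, which is the study's rule. CPM use TMM-scaled totals. The fit was tested on simulated data. Floors of 3 counts cover counting error only, and allele counts were not separated.

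The 9 genes and all lists were chosen with earlier results of these data known, so lists are described by counts and medians only. The rule for naming genes of the interferon and class I lists took the 4 with the smallest adjusted p in each deletion against wild-type, genes past the fold threshold, and direct regulators and relatives, not all of which are reported here. Marker lists are given mostly by counts. Others called within a list, such as *Pdia3* or *Rfxank*, and the markers named beyond *Thy1* and *Mmp2*, were chosen after their values were seen. Positions came from GENCODE M21, which held 55144 of the identifiers. Promoters came from RefSeq GRCm38.p6. Summaries used Python 3.11.15, pandas 2.3.3 and numpy 2.4.6. Alternatives were DESeq2 1.42.0, other scalings and filters, robust estimation, only the compared libraries, the replicate number as a block and each library left out in turn.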

Additional observations from a re-analysis of the deposited data

Results flagged for a closer look

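For 3 class I genes the homozygous and the heterozygous deletion differed from each other in the direct test of the difference. The homozygous minus heterozygous log2 fold change was -0.47 for *B2m*, -0.38 for *H2-K1* and -0.52 for *H2-D1*, with edgeR adjusted p of 7.1e-05, 0.000135 and 2.7e-05. Both homozygous libraries lay below both heterozygous libraries for each gene. The summed fibroblast markers were 3989 and 3955 CPM in these homozygous and 5515 and 5497 CPM in the heterozygous libraries, and their part in the differences was not tested.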

How the results depend on the processing

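The falls of *B2m* and *H2-D1* in the homozygous deletion kept their direction and call against wild-type and against the heterozygous deletion in all 12 alternatives, and that of *H2-K1* did so against the heterozygous deletion. Against wild-type *H2-K1* lost its call in 4 of 12, with DESeq2 at -0.23. The replicate numbers did not pair the libraries (correlations of deviations 0.0261, -0.0944 and 0.00865), and with the replicate number as a block *H2-K1* was at -0.23 (adjusted p = 0.0112) and no call of the 9 genes changed. Over all genes, DESeq2 called 482 genes in heterozygous and 2265 in homozygous cells against wild-type and 2761 between the deletions, 11, 205 and 71 of them past the fold threshold, and without a filter on low counts 49 genes passed that threshold in the heterozygous deletion; the cause was not tested. With a library left out, 0 of the 9 genes were called in the heterozygous deletion, 2 to 3 in the homozygous deletion against wild-type and 3 in each fit between the deletions, and the medians of the 9 ran from -0.12 to 0.0055, from -0.60 to -0.17 and from -0.43 to -0.0010. These fits called 351 to 611, 2115 to 3604 and 2903 to 4339 of all genes, with 14 to 23 past the fold threshold in the heterozygous deletion and 170 to 387 between the deletions, and a lone library was taken to vary like the other genotypes.

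Signs turned only for genes that never passed the test. With total counts only, *Ifitm3* was at 0.0060 in the heterozygous deletion and *Bst2* at -0.039 between the deletions, and *Ifitm3* between the deletions was at 0.00020 with DESeq2 and 0.00019 with its size factors. With a library left out, the log2 fold changes in the heterozygous deletion ran from -1.12 to 1.14 for *Ifit1*, -0.34 to 0.23 for *Irf7*, -0.17 to 0.0087 for *Bst2* and -0.025 to 0.016 for *Ifitm3*. In the homozygous deletion against wild-type they ran from -2.63 to 0.24 for *Ifit1*, -1.68 to 0.029 for *Irf7*, -0.13 to 0.030 for *Bst2* and -0.028 to 0.0015 for *Ifitm3*. Between the deletions they ran from -0.014 to 1.91 for *Ifit3*, -0.62 to 0.32 for *Isg15*, -1.65 to 0.051 for *Irf7*, -0.059 to 0.12 for *Bst2* and -0.033 to 0.0067 for *Ifitm3*. The summed fibroblast markers with total counts only were 7289 and 7210 CPM (wild-type), 5609 and 5591 (heterozygous) and 3835 and 3876 (homozygous), and with DESeq2 size factors 5487 and 5470 CPM (heterozygous).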
